A study of Mus musculus with 6 samples.

Results

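The small proline-rich protein (Sprr) genes encode short proteins that transglutaminases cross-link into the cornified envelope, the hardened layer under the membrane of squamous epithelial cells. They lie side by side in the epidermal differentiation complex, a gene cluster that also holds involucrin, loricrin and most S100 genes. In rodent uterus, Sprr2 genes are known to be induced by estrogen in the luminal epithelium, whereas Sprr1a and Sprr1b are best known from stratified squamous epithelia. The genes described here were chosen by name: 9 were listed, and 8 of them had a row among the 24077 genes of the single-cell table and the 30828 genes of the spatial tables. The ninth, Sprr2g, is annotated as a polymorphic pseudogene and was not analysed here. All 9 lie within 200.5 kb of mouse chromosome 3 (GRCm38), from the start of Sprr2a3 at 92285417 to the end of Sprr1a at 92485895. Sprr2a3, Sprr2b, Sprr2d, Sprr2e and Sprr2f are on the plus strand and Sprr1b, Sprr3 and Sprr1a on the minus strand.

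The uteri came from CD-1 mice at 12 months of age. Mice of the DES group had received diethylstilbestrol, a synthetic estrogen, at 1 mg/kg/day on days 1 to 5 after birth, and mice of the CO group had received the corn oil vehicle. Per the study's methods, CO mice were collected in estrus, judged by vaginal observation, and DES mice were in persistent estrus. The methods give no hormone levels. Single-cell RNA-seq (10x Chromium 3′) was run on 1 CO library, pooled from the uteri of 2 mice, and 1 DES library, pooled from 4 mice, so that the animals within a library cannot be told apart. Spatial transcriptomics (10x Visium) was run on 2 CO and 2 DES sections, each from a separate mouse and called A and B within its group. A pair of values given for a group is in the order A, B. A pathologist had evaluated sections for luminal and glandular epithelium and, in DES, for adenocarcinoma, before 2 mice per group were selected. The study describes that CO B had a tissue fold and that clusters were hard to identify in DES B.

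The CO library held 32387 cell barcodes and 353460067 unique molecular identifiers (UMIs, each a counted transcript), and the DES library held 16312 barcodes and 288919190 UMIs. The libraries shared 180 barcodes, or 1.10% of the DES barcodes. The sections held 1357 to 1834 spots and 9117099 to 12506177 UMIs. A spot covers several cells, so fewer cells of a type and less RNA per cell cannot be told apart in the sections. Levels are given as CPM, the UMIs of a gene per 1000000 UMIs of the same cells or spots. The 6 epithelial markers used below summed to 5654 CPM in the cells annotated as epithelial in CO and 3761 CPM in DES, against 1804 and 1200 CPM in all other annotated cells. Both kits count 3′ ends, so levels were not divided by transcript length. Intervals of levels and ratios are 95% Poisson intervals that cover counting error only.

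The uterine epithelium of the CO mice carried the genes at very unequal levels, and the promoters of the genes that the results turn on are shown here to compare them. Each sequence is the 250 bases before the RefSeq transcription start (GRCm38), 5′ to 3′ on the gene's own strand. Capitals mark the AP-1 site TGAGTCA (or its reverse complement TGACTCA) and the TATA box TATAAA. Sprr2f is at chr3:92364937-92365186 (plus strand), Sprr2b at chr3:92316455-92316704 (plus), Sprr2d at chr3:92338890-92339139 (plus), Sprr2a3 at chr3:92285054-92285303 (plus) and Sprr1a at chr3:92485882-92486131 (minus).
Sprr2f: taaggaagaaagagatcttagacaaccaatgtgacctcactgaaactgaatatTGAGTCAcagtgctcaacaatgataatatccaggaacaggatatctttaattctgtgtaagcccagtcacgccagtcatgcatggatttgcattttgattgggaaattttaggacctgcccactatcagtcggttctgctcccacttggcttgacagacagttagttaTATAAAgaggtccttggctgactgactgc
Sprr2b: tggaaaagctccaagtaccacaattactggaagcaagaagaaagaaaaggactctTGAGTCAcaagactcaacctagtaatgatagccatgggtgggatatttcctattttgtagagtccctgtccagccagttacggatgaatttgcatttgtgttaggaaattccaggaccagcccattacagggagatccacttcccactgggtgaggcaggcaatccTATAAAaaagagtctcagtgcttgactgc
Sprr2d: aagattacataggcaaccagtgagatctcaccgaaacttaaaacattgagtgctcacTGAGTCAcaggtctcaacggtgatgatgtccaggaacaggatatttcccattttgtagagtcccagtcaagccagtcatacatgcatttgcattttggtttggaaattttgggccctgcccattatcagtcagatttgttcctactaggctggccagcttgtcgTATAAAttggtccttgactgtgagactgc
Sprr2a3: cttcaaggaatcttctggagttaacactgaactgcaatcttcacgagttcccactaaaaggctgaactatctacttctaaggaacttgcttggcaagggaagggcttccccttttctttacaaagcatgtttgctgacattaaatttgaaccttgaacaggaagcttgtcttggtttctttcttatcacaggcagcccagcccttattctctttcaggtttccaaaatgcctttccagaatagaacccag
Sprr1a: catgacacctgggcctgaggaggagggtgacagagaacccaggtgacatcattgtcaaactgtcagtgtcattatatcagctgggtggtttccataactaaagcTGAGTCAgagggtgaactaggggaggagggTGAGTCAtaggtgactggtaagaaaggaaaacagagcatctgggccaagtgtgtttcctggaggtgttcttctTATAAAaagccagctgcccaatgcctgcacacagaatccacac

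Sprr2b, Sprr2d, Sprr2e and Sprr2f shared one arrangement, with TGAGTCA between -197 and -193 and TATAAA at -29, counted from the transcription start. The unlisted Sprr2h, Sprr2i and Sprr2k, which were scarce, held it too, with TGAGTCA at -198, -193 and -196 and TATAAA at -29. Sprr1a held TGAGTCA at both -146 and -116 and TATAAA at -43. Sprr1b and Sprr3 held TATAAA, at -30 and -33, without TGAGTCA. Sprr2a3 held neither motif in this window. Its start in RefSeq lies upstream of its start in the GENCODE annotation, and those of Sprr1a, Sprr1b and Sprr2b lie downstream. The motif positions of these genes therefore depend on the start used. Among 32851 promoters searched on both strands, TGAGTCA was found in 4.46% and TATAAA in 12.4%. The letters GGTCA, one arm of an estrogen response element, were found in 35.2% of promoters. Among those of the 8 listed genes they were found only in Sprr2f, at -219, and in Sprr3, at -19. Compared base by base without gaps, the Sprr2d and Sprr2e promoters matched at 220 of 250 bases (88.0%), and those of Sprr1a and Sprr2f at 66 (26.4%). The matches describe the letters in these windows and no binding was measured.

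Sprr2f was the leading gene of the group in epithelial cells of both libraries. In the 2583 CO epithelial cells it reached 14407 CPM (1135266 UMIs) and ranked 4 among all genes by UMIs. In the 5255 DES epithelial cells it stood at 2860 CPM (503763 UMIs) and ranked 63. The DES level was 5.04-fold lower (5.02 to 5.05). With 1 library per group there is no replicate check, and the ratios compare these libraries rather than the treatments.

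The other Sprr2 genes were lower in the DES library as well. Sprr2a3 had 1067 CPM in CO and 113 CPM in DES epithelial cells, 9.44-fold lower (9.29 to 9.58). Sprr2b had 230 and 38.1 CPM, 6.04-fold lower (5.88 to 6.22). Sprr2d and Sprr2e showed the widest gaps among the listed Sprr2 genes. Sprr2d had 37.0 and 2.05 CPM, 18.0-fold lower (16.1 to 20.1), and Sprr2e had 13.4 and 0.443 CPM, 30.2-fold lower (24.0 to 38.5). Sprr2a3 shares sequence with its copies Sprr2a1 and Sprr2a2: 50.2% of the 90-base windows in the last 400 bases of its transcripts also occur in them, so how reads were divided among the copies is uncertain. No such window was shared by any other of the 8 genes.

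Sprr1a, a cornified envelope precursor, had 377 CPM in CO and 82.7 CPM in DES epithelial cells and was 4.56-fold lower in DES (4.48 to 4.66). The DES over CO ratio of Sprr1a was 0.219 from these sums and 0.352 as a mean over cells scaled each to the same total. Sprr3, known from oesophageal epithelium, was close to absent, with 6 UMIs in CO and 26 in DES epithelial cells (ratio 1.94, 0.780 to 5.76). Sprr1b had 4 UMIs in CO and 0 in DES epithelial cells, and a count of 0 allows up to 0.0170 CPM there, the level of 3 UMIs. Of the 7 listed genes with over 3 UMIs in both libraries, 6 were at least 2-fold lower in the DES library, where 12.0% of all 16199 such genes were. Summed over the 8 genes, the share of all epithelial UMIs was 1.61% in CO and 0.310% in DES.

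Single cells differed widely in each gene. Over CO epithelial cells, Sprr2f had a median of 12074 CPM, with 10% of cells under 789 CPM and 10% over 24809 CPM. Over DES epithelial cells the median was 1606 CPM, with the corresponding limits at 103 and 6323 CPM. The scarcer Sprr2 genes were concentrated in few cells: the highest 1% of cells held 75.7% of Sprr2d and 79.5% of Sprr2e UMIs in DES, and 42.9% and 45.5% in CO. For Sprr2b the highest 1% of DES cells (53 cells) held 59.1% of its UMIs, against 36.0% for Sprr2a3, 23.2% for Sprr1a and 10.6% for Sprr2f. In the CO library the highest 1% (26 cells) held 15.9%, 9.96%, 12.7% and 6.37%, in the same order. Among these 6 genes, Sprr2f UMIs were spread most evenly over the epithelial cells of both libraries.

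Levels outside the epithelium were next examined by the deposited cell types. Sprr2f was at 588 CPM (Stmn1-hi cells) to 2636 CPM (myocytes) in the other CO cell types, and at 964 CPM over all of them, against 14407 CPM in CO epithelial cells. In the other DES cell types it was at 86.1 CPM, 33.2-fold below DES epithelial cells. Each cell type other than the epithelium was thus far below it. The other cells of the 2 libraries differ in mix. The study describes stromal cells, pericytes and endothelial cells as largely missing from its DES sample. Mesothelial cells held 5023 of the 6061 Sprr2f UMIs in the other annotated DES cells. When each cell was thinned to 3000 UMIs, 97.9% of CO epithelial cells (median depth 23458 UMIs) and 98.1% of CO lymphocytes (4033 UMIs) held a Sprr2f UMI, so the share of cells with Sprr2f did not separate epithelium from other cells in the CO library. In the DES library the shares were 81.9% for epithelial cells (21900 UMIs) and 39.4% for lymphocytes (5599 UMIs).

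The ratio between the genes varied among cell types to different degrees. CO epithelial cells held 7.40 Sprr2a3 UMIs for every 100 Sprr2f UMIs, and the other CO cell types held 6.40 to 9.24. Sprr1a per 100 Sprr2f UMIs was 2.62 in CO epithelial cells and 2.45 over all other annotated CO cells, but 0.519 in myocytes (15 Sprr1a UMIs) and 5.22 in Stmn1-hi cells (13 UMIs). Sprr2b per 100 Sprr2f UMIs was 1.60 in CO epithelial cells, 6.27 in myeloid cells (53 UMIs) and 11.4 in myocytes, where 302 of 331 UMIs (91.2%) came from 1 of 85 cells. In the DES library Sprr2a3 was at 3.95 in epithelial and 3.70 in other cells, and Sprr1a at 2.89 and 4.67, with 5.30 in mesothelial cells (266 UMIs). Free RNA was not measured separately, so its part in the UMIs outside the epithelium was not tested. Barcodes without a deposited cell type, 20134 in CO and 6611 in DES, held Sprr2f at 5050 and 1617 CPM.

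The share of cells with Sprr1a separated the epithelium in both libraries, whereas that of Sprr2f was near its ceiling in CO. Shares therefore do not rank the 2 genes. By level, DES epithelial cells exceeded other annotated DES cells 20.6-fold for Sprr1a and 33.2-fold for Sprr2f. In CO the intervals of this ratio were 15.36 to 16.67 for Sprr1a and 14.86 to 15.05 for Sprr2f. The other annotated cells were of different types in the 2 libraries, so these ratios do not share a background. After thinning to 3000 UMIs, 39.7% of CO epithelial cells (95% Clopper-Pearson interval 37.8 to 41.6; 69.7% unthinned) held a Sprr1a UMI, against 7.74% of CO lymphocytes and 6.82% of CO mesothelial cells. In the DES library, 14.2% of epithelial cells (13.2 to 15.1; 40.0% unthinned), 1.88% of lymphocytes and 0.978% of mesothelial cells held one. In both libraries the epithelial share was above that of cells expected to lack the gene.

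**Figure D1:**
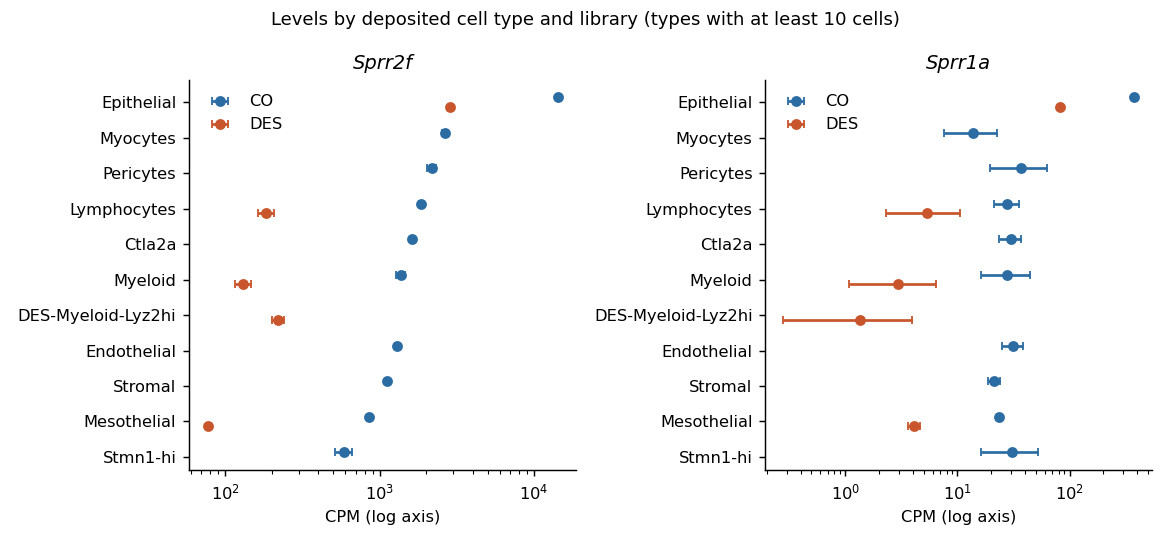
Sprr2f (left) and Sprr1a (right) in CPM on a log axis for each deposited cell type with at least 10 cells, with CO in blue and DES in orange and bars for 95% Poisson intervals. Both genes were highest in epithelial cells of both libraries, and every other CO cell type held Sprr2f at 588 CPM or more.

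Within the CO epithelium, the Sprr genes followed the division into luminal and glandular cells. The study grouped its 15 CO clusters as luminal (10 clusters, 2095 cells), glandular (4 clusters, 417 cells) and cluster 12 (71 cells). These clusters were formed on counts that include the Sprr genes, so the following levels are a description without a test. Sprr2f was at 16360 CPM in luminal, 1138 CPM in glandular and 4277 CPM in cluster 12 cells. Sprr1a was at 428, 45.7 and 42.4 CPM, in the same order, and Sprr2b at 262, 16.3 and 52.6 CPM. The luminal level exceeded the glandular level 14.4-fold for Sprr2f, 19.1-fold for Sprr2a3, 16.1-fold for Sprr2b, 17.4-fold for Sprr2d, 22.1-fold for Sprr2e and 9.38-fold for Sprr1a. The glandular level of Sprr2f lay within the range of the other CO cell types.

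The luminal clusters differed among themselves. Sprr2f was highest in cluster 2 (21402 CPM) and, over all 15 clusters, lowest in glandular cluster 14 (615 CPM). Sprr1a was highest in cluster 7 (748 CPM) and cluster 0 (678 CPM), while luminal cluster 10 held only 48.1 CPM of Sprr1a beside 12936 CPM of Sprr2f. That Sprr1a level was near the 45.7 CPM of the merged glandular clusters, where cluster 3 held 315 of the 398 UMIs. Sprr1a thus did not separate every luminal cluster from the glandular cells. Sprr2e was high in clusters 7 (32.9 CPM) and 0 (27.9 CPM), in an order that turns as means over cells, whereas Sprr2b (384 CPM) and Sprr2d (121 CPM) were highest in cluster 11. By CPM, the genes thus peaked in different luminal clusters.

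The 16 DES clusters, from which the study had removed basal cells, differed from the CO clusters in their range gene by gene. Sprr2f ran from 1134 CPM in cluster 7 to 9935 CPM in cluster 15, an 8.76-fold range (8.56 to 8.96) against 34.8-fold (32.0 to 37.9) over the CO clusters. Sprr1a also had a narrower range in DES, 15.5-fold against 44.5-fold, whereas Sprr2b ran from 2.48 to 1123 CPM in DES and from 9.92 to 384 CPM in CO, and Sprr2a3 from 11.6 to 907 CPM and from 28.7 to 1725 CPM. Cluster 15, with 54 cells, was also highest for Sprr2b (1123 CPM), Sprr2a3 (907 CPM) and Sprr2d (53.6 CPM), and its Sprr2b level was above that of every CO cluster. Sprr1a was highest in clusters 0 (161 CPM, 156 to 167) and 15 (154 CPM, 140 to 169), whose intervals overlap and whose order turns as means over cells, and lowest in cluster 7 (10.4 CPM). Cluster 5 had the second highest Sprr2f level, 5845 CPM.

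**Figure D2:**
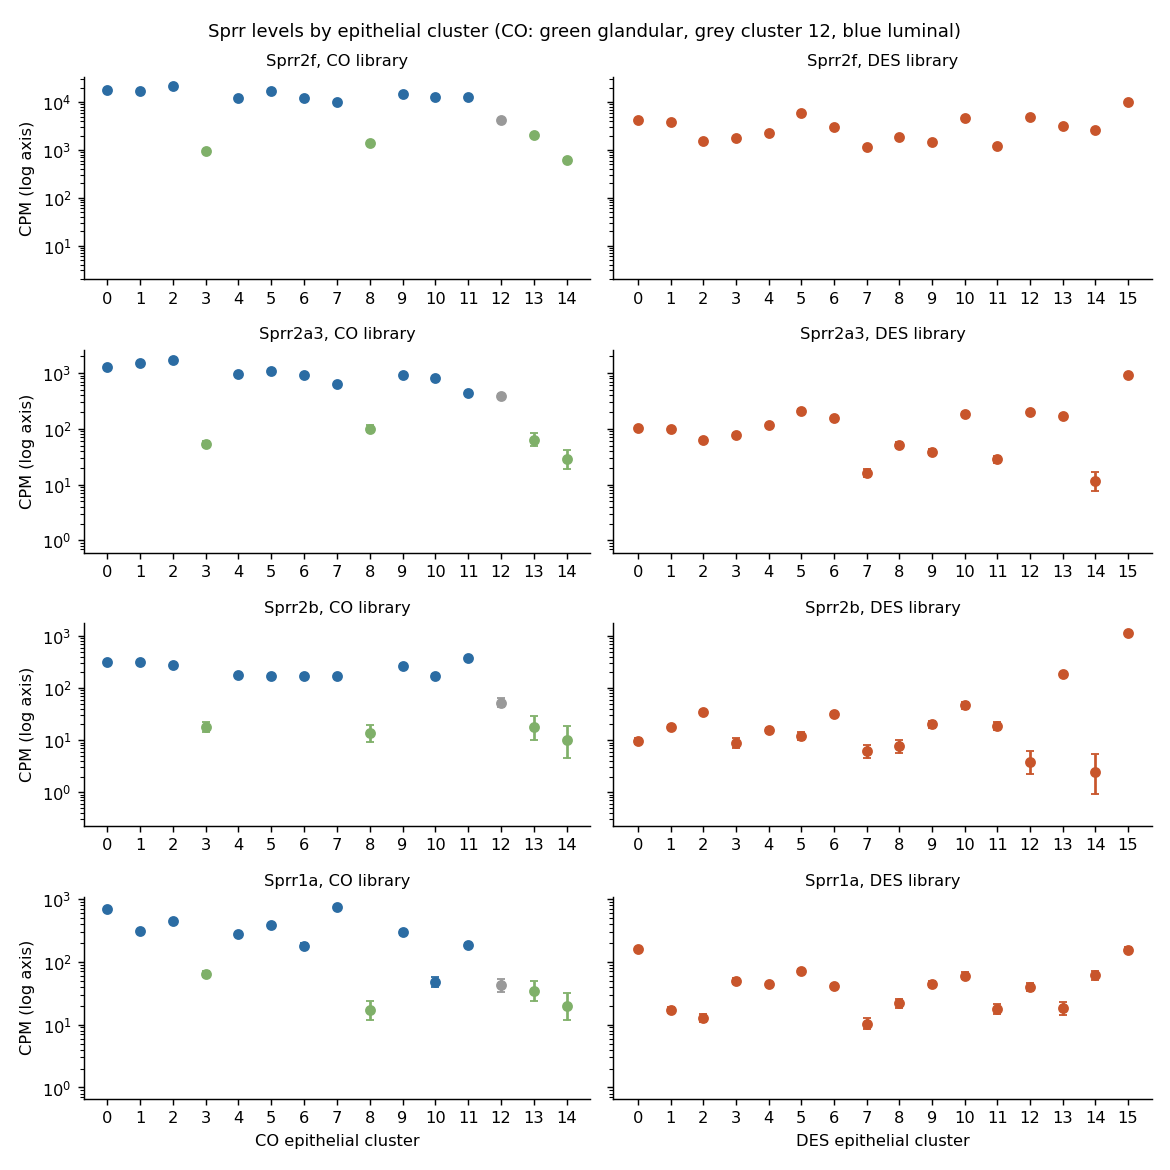
CPM (log axis) of Sprr2f, Sprr2a3, Sprr2b and Sprr1a in the 15 CO and 16 DES epithelial clusters, with 95% Poisson intervals; CO clusters are coloured as luminal (blue), glandular (green) or cluster 12 (grey). Sprr2f in glandular clusters lay at 615 to 2061 CPM, below each luminal cluster, and DES cluster 15 stood highest for Sprr2f, Sprr2a3 and Sprr2b.

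Across clusters, Sprr2f and Sprr2a3 ranked alike, with Spearman's rho of 0.936 over 15 CO and 0.859 over 16 DES clusters. Sprr2b followed Sprr2f over CO clusters (rho 0.832) but little over DES clusters (0.191). Sprr1a and Sprr2f had rho of 0.754 and 0.588. The clusters of a library share 1 library and its depth, so these values are descriptions. Among the 7833 genes with a mean of at least 10 CPM over the clusters, the most like Sprr2f over CO clusters were Cdc42ep2 (0.961), Tmem9b (0.954) and Prr13 (0.95), and Sat1 (0.957) and Ap2b1 (0.954) were among the 3 most like Sprr1a. Among 7972 genes over DES clusters they were Galnt4 (0.853), Cldn7 (0.850) and Zbtb18 (0.847) for Sprr2f, and Notch3 (0.853), Gmeb1 (0.850) and Ada (0.803) for Sprr1a.

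Basal cells, which lie under the surface layer and express Krt14 and Trp63, were defined here by more than 1 UMI of each. This held for 483 DES epithelial cells and for no CO epithelial cell. In DES basal cells Sprr1a was at 523 CPM, against 56.5 CPM in the other 4772 DES epithelial cells, 9.25-fold higher (8.94 to 9.57). Sprr2f went the other way, at 781 and 2983 CPM, as did Sprr2b, at 8.39 and 39.9 CPM. Basal cells therefore held 66.9 Sprr1a UMIs for every 100 Sprr2f UMIs, against 1.89 in the other DES and 2.62 in CO epithelial cells. Without basal cells, Sprr1a in DES epithelial cells was 6.68-fold below CO (6.53 to 6.84).

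The sections gave replicates for the comparison of DES with CO. Sprr1a was at 121 and 88.7 CPM in the CO sections and at 1409 and 1000.1 CPM in the DES sections. Both DES sections lay above both CO sections. An exact permutation test of 2 sections against 2 cannot take such an order below p = 0.3333. How many of all genes were so ordered was not counted, here or for the genes below. The log2 difference of DES from CO was 3.31 (SE 0.29, adjusted p = 0.0206, edgeR quasi-likelihood test with Benjamini-Hochberg adjustment over 14098 genes). Sprr1a was the only one of the 6 tested members called, 1 of 6, where 5.30% of all genes were called, 2.67% higher and 2.63% lower. Without DES A or DES B the call was lost (adjusted p = 0.0611 and 0.0604, edgeR). In every fit without 1 section, the lone section of its group is assumed to vary like the 2 of the other group. The direction of Sprr1a was opposite to that in the single-cell epithelium, where it was 4.56-fold lower in DES. These values come from unlike material. The study released its single cells by trypsin from uterine horns, without the uterine body. Its sections were cut from cored areas of frozen uterus and are taken here whole, with all their cell types. The part of this in the opposite directions was not tested. Sprr1b and Sprr3 were not tested: Sprr1b had no UMI in any section and Sprr3 had 1, in CO A.

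Sprr2f was at 9636 and 3551 CPM in the CO sections and at 1119 and 2157 CPM in the DES sections. The groups did not overlap, but the difference did not pass the test: the log2 difference was -2.22 (SE 0.62, adjusted p = 0.116, same test). Sprr2d was higher in both DES sections, at 143 and 28.6 CPM against 12.6 and 3.63 CPM in CO, and did not pass the test either (log2 difference 3.15, SE 0.96, adjusted p = 0.135). For Sprr2d, too, the direction in the sections was opposite to that in the single-cell epithelium, with the same difference in material. Sprr2a3 and Sprr2b were high in CO A alone. Sprr2a3 had 707 and 28.7 CPM in CO against 10.97 and 59.8 CPM in DES, and Sprr2b had 261 and 6.53 CPM against 7.13 and 11.8 CPM. Neither passed the test (log2 differences -3.58 and -4.04, adjusted p = 0.266 and 0.222, edgeR). CO A decided these values: without it the log2 differences were 0.14 and 0.36, and without CO B they were -4.53 (adjusted p = 0.0379) and -5.00 (0.00371). Sprr2e had 6 to 23 UMIs in each section and a log2 difference of -0.08 (adjusted p = 0.964, edgeR).

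To compare spots holding much epithelium, the 20% of spots richest in 6 epithelial markers (Epcam, Cdh1, Krt8, Krt18, Krt19 and Cldn7) were taken from each section, 271 to 367 spots. This did not match the spots in content. The last spot taken held 5129 and 3301 CPM of these markers in CO and 4680 and 5041 CPM in DES. In the more basal of 2 groups of these spots, Krt14, Krt5 and Trp63 summed to 9.05 and 344 CPM in CO and to 13532 and 9217 CPM in DES. Over all epithelium-rich spots Sprr2f was at 16798 and 7397 CPM in CO and at 1615 and 3126 CPM in DES, and the log2 difference was -2.67 (SE 0.54, adjusted p = 0.0464, edgeR, 11720 genes). Sprr1a was at 227 and 104 CPM in CO and at 1587 and 1618 CPM in DES, with a log2 difference of 2.95 (SE 0.42, adjusted p = 0.0233). For both genes the groups did not overlap, an order that was not counted over all genes. In these spots 6.83% of all genes (4.35% higher, 2.48% lower) and 2 of the 6 tested members were called, 1 in each direction. Both calls were lost without DES A or DES B: adjusted p = 0.202 and 0.130 for Sprr2f and 0.0671 and 0.102 for Sprr1a (edgeR). With the section letter as a replicate block, Sprr2f lost the call as well (-2.63, adjusted p = 0.0614, edgeR). Sprr2d gained one with the block in whole sections (3.05, 0.0219) and here (2.40, 0.0126). The letters do not pair the sections, however: same-letter deviations had correlations of -0.0254 in whole sections and 0.0291 here.

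**Figure D3:**
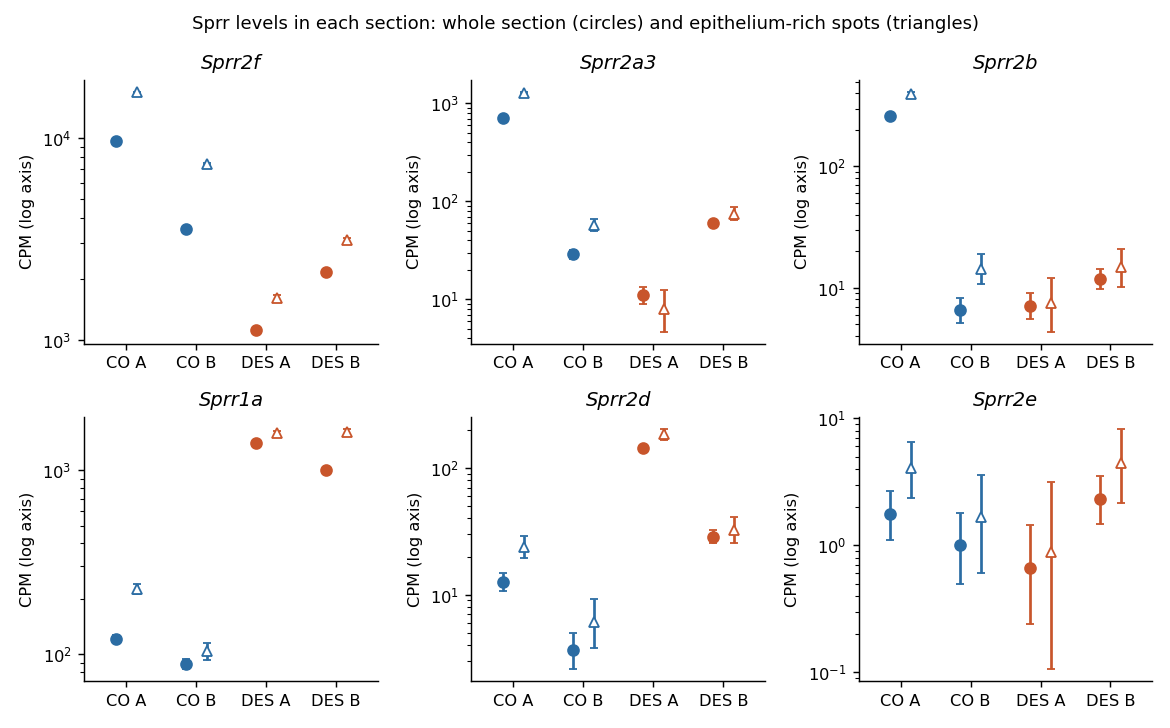
CPM on log axes of 6 Sprr genes in each section, whole (filled circles) and in epithelium-rich spots (open triangles), with 95% Poisson intervals. Sprr1a lay higher in both DES sections than in either CO section, Sprr2f lay lower, and Sprr2a3 and Sprr2b stood apart in CO A.

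The next comparison asked whether Sprr UMIs lay in epithelium-rich spots more than in the other spots of the same section. Because the spots were chosen by markers measured in the same spots, these p-values are likely too small. In the CO sections all 6 tested members were enriched, where 26.2% of 13673 genes were called higher and 50.1% in either direction. The log2 enrichments were 2.20 (SE 0.60) for Sprr2e, 1.86 for Sprr2f, 1.81 for Sprr2a3, 1.72 for Sprr2d, 1.36 for Sprr2b and 1.12 (SE 0.28) for Sprr1a. In CO B, only 367 of 979 Sprr1a UMIs lay outside spot cluster 10. That cluster had 17 spots, of which 29.4% were epithelium-rich. The enrichments were not fitted without it, so its part in the values of Sprr1a was not tested. Without CO A, Sprr1a (0.39, adjusted p = 0.0789, edgeR) and Sprr2e (1.31, 0.324) were not called, nor were they by DESeq2 (0.137 and 0.132). In the DES sections only Sprr2f was called, at 0.68 (adjusted p = 0.0352, edgeR), where 1.34% of genes were called higher, 5.63% lower and 6.97% in either direction. That call was lost without DES A (0.354) or DES B (0.209), and Sprr1a (0.54, adjusted p = 0.286, edgeR) gained one without DES A (0.92, 0.0241), CO A (4.90e-04) or CO B (3.19e-04), as did Sprr2d (0.35, 0.208) without CO A (0.0185) or CO B (0.0181). The difference between the enrichments, tested in the same fit, was negative for Sprr2a3 (-1.72, SE 0.28, adjusted p = 0.0029), Sprr2d (-1.37, SE 0.27, adjusted p = 0.00797) and Sprr2f (-1.18, SE 0.24, adjusted p = 0.00924). The epithelial markers that chose the spots moved with it: Epcam was enriched by 1.82 in CO and 0.79 in DES (difference -1.03, SE 0.23), and the 6 markers summed to 6146 and 4121 CPM in epithelium-rich against 2299 and 1150 CPM in other spots in CO, and to 5539 and 5972 against 2898 and 3249 CPM in DES. Their part in the Sprr differences was not tested. The difference was not called for Sprr2b (-1.141, adjusted p = 0.0732, edgeR), Sprr2e (-1.08, 0.451) or Sprr1a (-0.58, 0.351). These 3 calls compare with 6.71% of genes called lower, 7.11% higher and 13.8% in either direction. The call of Sprr2d was lost without CO A (-0.98, adjusted p = 0.116, edgeR) and that of Sprr2f without DES B (-1.09, 0.0534). Sprr2b gained one without CO A (-2.22, 6.41e-04) or CO B (-0.87, 0.0108), and Sprr1a without CO B (-1.29).

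Basal markers, like Sprr1a, were higher in both DES sections than in either CO section. Between the CO sections they did not follow Sprr1a, which was at 121 CPM in CO A and 88.7 CPM in CO B. Krt14, Krt5 and Trp63 summed to 3.36 and 160 CPM in CO and to 9526 and 5644 CPM in DES, and squamous markers (Krt13, Krt4, Krt6a and Dsg1a) to 2.80 and 72.8 CPM and to 1003 and 624 CPM. Dsg1a was at 0 in CO A, DES A and DES B. The epithelial markers varied less, at 3582 and 2125 CPM in CO and 3557 and 3865 CPM in DES. The part of basal and squamous cells in the Sprr1a difference was not tested.

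Within the epithelium-rich spots of DES sections, Sprr1a and Sprr2f divided along the same markers. Split into equal numbers of spots by their basal marker share, the more basal spots of DES A held 2557 CPM of Sprr1a against 605 CPM in the less basal spots, and those of DES B 2579 against 711 CPM. Sprr2f was lower in the more basal spots, at 1357 against 1877 CPM in DES A and 2393 against 3818 CPM in DES B. Over all spots, Sprr1a and Krt14 had Spearman's rho of 0.703 in DES A and 0.563 in DES B, and 0.0999 and 0.336 in CO A and CO B. Sprr2f and Krt14 also had positive rho over all spots, 0.212 and 0.207 in DES and 0.102 and 0.189 in CO. DES spots with a basal marker UMI held more Sprr2f than those without, 1132 against 627 CPM in DES A and 2204 against 105 CPM in DES B. Sprr2f and Epcam had rho of 0.764 and 0.644 in the CO and 0.466 and 0.508 in the DES sections, and Sprr1a and Epcam 0.455 and 0.326 in CO and 0.346 and 0.413 in DES. Spots share a section and its depth gradient, so these are descriptions.

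One small region of CO B held far more Sprr1a and basal markers than the rest of that section. Cluster 10 of CO B, 17 spots, held 3112 CPM of Sprr1a, 6025 CPM of basal markers and 3595 CPM of squamous markers, with 612 of the section's 979 Sprr1a UMIs. Its Sprr1a level and its Sprr2f level, 4312 CPM, were above both whole DES sections. Without these spots Sprr1a in CO B was at 33.9 CPM, and the log2 difference of DES from CO was 3.73 (adjusted p = 0.0485, edgeR). The highest Sprr1a clusters of the other sections were CO A cluster 1 (240 CPM), DES A cluster 1 (2627 CPM) and DES B cluster 7 (3376 CPM). Sprr2d was highest in DES A cluster 8 (645 CPM), where immune markers (Ptprc, Cd3e, Lyz2 and Cd52) summed to 7665 CPM. Over whole sections immune markers summed to 168 and 385 CPM in CO and to 1651 and 846 CPM in DES, and their part in the Sprr2d values was not tested.

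**Figure D4:**
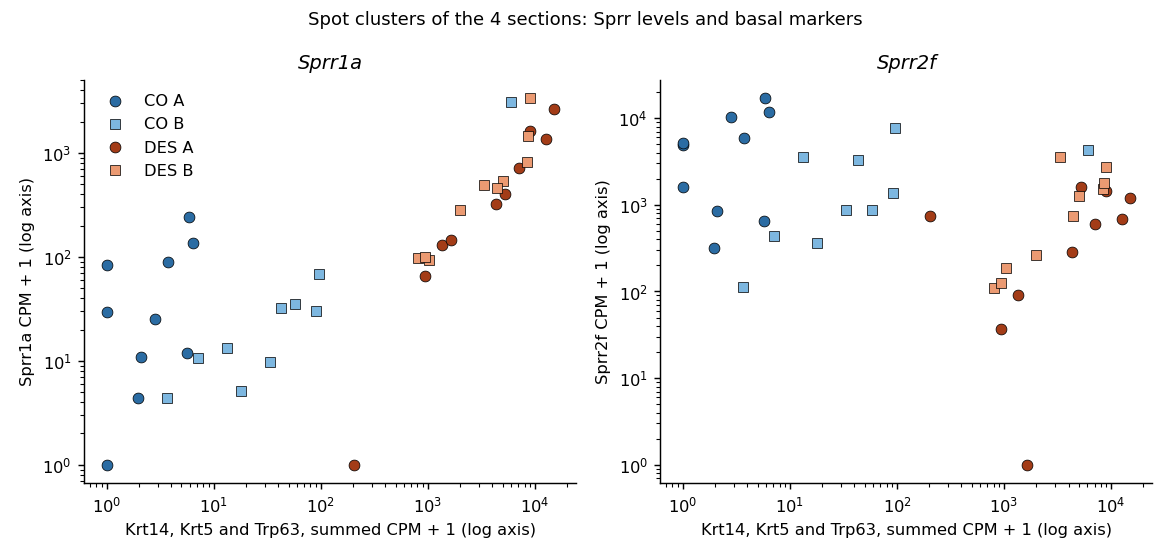
Sprr1a (left) and Sprr2f (right) against the summed basal markers, each as CPM + 1 on log axes, for the 40 spot clusters of the 4 sections. Among DES clusters, those with more basal marker UMIs mostly held more Sprr1a, and CO B cluster 10 lay with them, while the highest Sprr2f clusters were in CO A at low basal levels.

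Other genes of cornification were then counted from 4 lists. Of 30 genes for cornified envelope proteins and cross-linking enzymes, 15 were tested in whole sections, 3 were called higher in DES (Tchh, Tgm5 and Evpl) and none lower, where 2.67% of all genes were called higher. Their median log2 difference was 2.59, against -0.01 for all genes. Evpl, which encodes the envelope scaffold envoplakin, was at 23.7 and 19.1 CPM in CO and at 154 and 144 CPM in DES (log2 difference 2.59, adjusted p = 0.0183, edgeR). Of 12 squamous keratins, 11 were tested and 4 were called higher (Krt78, Krt6b, Krt17 and Krt1), with a median of 3.94. Krt17 was at 7.76 and 8.61 CPM in CO and at 86.3 and 83.5 CPM in DES (3.17, adjusted p = 0.0141, edgeR). Of 13 S100 genes, 12 were tested and 3 were called higher (S100a14, S100a11 and S100a16), with a median of 1.04. In single epithelial cells the median DES over CO ratio was 0.979 for 16 envelope genes, 2.38 for 10 keratins and 1.11 for 12 S100 genes with over 3 UMIs in both libraries, against 1.09 for all genes. Of the genes called in whole sections, Krt6b (6.33 CPM in CO and 0.426 in DES) and Tgm5 (7.07 and 3.12 CPM) went the other way there. Tchh, Evpl, Krt17, Krt1, S100a14, S100a11 and S100a16 were higher in DES in both, and Krt78 had only 3 UMIs in CO epithelial cells. In epithelium-rich spots 4 of 11 envelope genes, 5 of 11 keratins and 6 of 11 S100 genes were called higher and none lower, where 4.35% of all genes were called higher. Each call named here was lost in whole sections without DES A and without DES B. In epithelium-rich spots, of 19 genes of the 4 lists followed through the alternatives, 5 were called without DES A and none without DES B (edgeR).

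Of 18 transcription factors known at Sprr promoters or in squamous differentiation, 16 were tested and 4 were called higher in whole DES sections (Pitx1, Grhl3, Grhl1 and Junb), where 2.67% of all genes were, with a median log2 difference of 0.46 against -0.01 for all genes. Without DES A or DES B none of the 4 was called (edgeR). In epithelium-rich spots 5 were called higher, Pgr being the fifth, and none lower, where 4.35% of all genes were called higher. Grhl3, a factor of epidermal barrier formation, was at 1.44 and 0.906 CPM in CO and at 33.1 and 44.2 CPM in DES (4.81, adjusted p = 0.0182, edgeR). Junb, a subunit of AP-1, the factor that binds TGAGTCA, was at 45.9 and 48.0 CPM in CO and at 126 and 113 CPM in DES (1.137, adjusted p = 0.0306, edgeR). In the single-cell epithelium, the 4 AP-1 genes of the list were lower in the DES library: Fos was at 1133 CPM in CO and 302 in DES, Jun at 561 and 316 and Junb at 524 and 249, and Fosl1, named here after its values were seen, at 8.46 and 0.539. In the DES basal cells, where Sprr1a was high, Fos (1628 CPM), Jun (2124 CPM) and Junb (1429 CPM) were above CO epithelial cells and Fosl1 (6.07 CPM) was below them. Per the study's methods, the single cells had been dissociated with trypsin, and the sections were cut from frozen tissue. Neither the part of this in the AP-1 levels nor a part of AP-1 in the Sprr1a levels was tested. Elf3, an epithelial ETS factor, was at 608 and 518 CPM. Over 17 factors of the list the median ratio was 0.925. The 4 genes of the envelope list with the highest single-cell CPM did not move together. From CO to DES epithelial cells, the cross-linking enzyme Tgm2 was at 772 and 169 CPM and Anxa1 at 457 and 388. Cstb was at 186 and 184 CPM, and Ppl was higher in DES, at 25.9 and 39.2. The keratins of basal cells were higher in DES, with Krt14 at 0.838 and 226 CPM and Krt5 at 0.305 and 178 CPM.

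The remaining Sprr genes were scarce. In CO epithelial cells Sprr2a1 had 28 UMIs, Sprr2k 24, Sprr2h 17, Sprr2a2 16, Sprr2i 7 and Sprr2j-ps 1, and in DES epithelial cells they had 10, 0, 16, 5, 5 and 1. Sprr2a1 and Sprr2a2 had no window in the last 400 bases of their transcripts that was theirs alone, which limits how many reads could be assigned to them. Sprr4, present in the spatial tables, had no UMI in any section.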

How the data were processed

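The data were single-cell and spatial RNA counts of 12-month CD-1 mouse uterus. Per the labels and the study's methods, the authors made the deposited counts (raw UMI counts per gene, not normalized) with Cell Ranger 3.0.1 (single cells) and Space Ranger 1.2.2 (spots) on mm10, after bcl2fastq 2.20.0.422, examined the single-cell data for barcode swapping and removed doublets, so no doublet caller was run. Cell types, epithelial clusters and spot clusters were the deposited ones.

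Groups came from the labels. UMIs were summed per library and cell group, or per section, and scaled to CPM. The 2 single-cell libraries were compared without a test. Section sums were tested with edgeR 4.0.16 in R 4.3.3 (quasi-likelihood test, TMM factors, filterByExpr, adjusted p under 0.05 over all genes tested), after tests on simulated data. The comparison of epithelium-rich with other spots had a term for each section. Each section came from a separate mouse, and p-values measure the spread between the sections of a group. With 2 sections against 2 an exact permutation test cannot go below p = 0.3333. Alternatives were DESeq2 1.42.0, other size factors, no filter on low counts, totals without the Sprr genes, other spot selections, a replicate block and each section left out; leaving out CO B cluster 10 was added after its values were seen. The genes and lists were chosen with earlier results of these data known. Genes named from a list were those that passed a test, at most the 4 largest changes per direction, and the 4 with the highest single-cell CPM; the 3 genes most like Sprr2f and Sprr1a were named by Spearman's rho, except 1 that is not reported here. RefSeq promoter sequences matched 14 Sprr genes, 8 of them listed. No sections or libraries were left out of the main comparisons.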

Additional observations from a re-analysis of the deposited data

Results flagged for a closer look

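The enrichment of 3 genes in epithelium-rich spots over the other spots of the same section differed between DES and CO by a test of the difference itself (edgeR). The difference, DES minus CO on the log2 scale, was -1.72 for Sprr2a3, -1.37 for Sprr2d and -1.18 for Sprr2f. In the CO sections, A then B, Sprr2a3 was at 1281 and 57.5 CPM in epithelium-rich and at 420 and 14.7 CPM in other spots, and in the DES sections at 7.91 and 75.1 CPM against 12.0 and 55.3 CPM. Sprr2d was at 24.0 and 6.08 against 6.96 and 2.43 CPM in CO, and at 185 and 32.6 against 129 and 27.5 CPM in DES. Sprr2f was at 16798 and 7397 against 6055 and 1673 CPM in CO, and at 1615 and 3126 against 954 and 1874 CPM in DES. In each CO section the epithelium-rich level was over 2 times that of the other spots for these 3 genes. In the DES sections it was under 2 times, and below the other spots for Sprr2a3 in DES A. The epithelial markers that chose the spots were also less enriched in DES (Epcam 0.79 against 1.82 in CO, log2), and basal markers differ between the groups in the same spots; the part of neither was tested. The call of Sprr2d was lost without CO A (adjusted p = 0.116, edgeR), and that of Sprr2f without DES B (0.0534) and with the top 10% of spots (0.0673). The spots were chosen by markers measured in them, so these p-values are likely too small.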

How the results depend on the processing

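Sprr1a stayed higher and Sprr2f lower in DES sections under every alternative run, but not always past the threshold. Sprr2f in epithelium-rich spots had adjusted p = 0.0614 with the replicate block, 0.0647 with the top 30% of spots and 0.0584 with Epcam and Cdh1 alone; in whole sections it was called with DESeq2 (3.44e-04) and without CO B (0.0219). Sprr2d was called with the block, at log2 3.05 in whole sections and 2.40 in epithelium-rich spots. The block gave 527 calls against 747 in whole sections and 771 against 801 in epithelium-rich spots; same-letter sections deviated with correlations of -0.0254 and 0.0291, so the letters do not pair the sections. Calls in whole sections were 1756 with DESeq2 and 3 to 2819 leaving out one section, and in epithelium-rich spots 10 to 3032. For enrichment in CO sections there were 6852 calls, 4173 with DESeq2; in DES sections 953, against 488 with DESeq2, 1450 without the filter, 479 with the top 10% of spots and 397 to 2519 leaving out one section; for the difference 1890, against 835, 699 with the top 10% and 964 to 3793. Leaving out one section, log2 differences that changed sign ran in whole sections from -5.37 to 0.14 for Sprr2a3, -5.00 to 0.36 for Sprr2b (both positive only without CO A), -1.32 to 0.55 for Sprr2e (positive without CO A, 0.42, or DES A) and -0.37 (without CO B) to 0.86 for Pgr. In epithelium-rich spots those of Sprr2e ran from -2.01 to 0.39 (positive without CO A or, at 0.33, DES A). Enrichment in DES ran from -0.63 (without DES B) to 0.38 for Sprr2a3 and, with the top 10% of spots, was negative for Sprr2b (-0.13) and Sprr2d (-0.40) and not called for Sprr2f (0.55, adjusted p = 0.101, edgeR). The enrichment difference of Sprr1a ran from -1.29 to 0.15 (without CO A), and that of Sprr2f was not called with the top 10% (-0.80, 0.0673). DESeq2 did not call the CO enrichment of Sprr1a (0.137) or Sprr2e (0.132). The cause was not tested. In single cells the DES over CO ratio of the summed genes was 0.192, and 0.189 without Sprr genes in the totals, 0.197 without the 20 most abundant genes and 0.198 as a mean over cells; that of Sprr1a was 0.219, 0.225 without those 20 genes and 0.352 as a mean over cells. The share of cells with Sprr1a was 49.5% in CO and 19.7% in DES thinned to 5000 UMIs and 69.7% and 40.0% unthinned. As means over cells, the ratio between the DES clusters highest and lowest by CPM was 8.21 for Sprr2f and 10.9 for Sprr1a. Depth limits Sprr1b, Sprr3 and Sprr2e in the sections.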
